A study of Mus musculus with 12 samples.

Results

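The tripartite motif (TRIM) genes were taken as every gene of the deposited table whose symbol is Trim followed by a digit. This rule gave 68 of 22243 genes, with 83 transcripts, and it uses the symbol and no measured value. All 68 protein-coding Trim genes of the GENCODE M21 annotation were among them. RNA sequencing was done on bone marrow-derived macrophages (BM-Mɸs) of mice on a C57Bl/6 background, with 1 ErbB4myeKO mouse and 1 ErbB4FF mouse from each of 6 litters, 12 libraries in all. Both groups carry floxed Erbb4 alleles, and ErbB4myeKO mice also carry LysMCre, a recombinase expressed from the Lyz2 locus in myeloid cells, while ErbB4FF littermates lack it. M1 activation was the same in all 12 cultures, IFN-γ at 100 U/mL over 16 h followed by LPS at 100 ng/mL over 6 h, so there is no resting culture to set the levels against. The labels give neither age nor sex, and their batch letters follow the litters, so that litter and batch cannot be told apart. The paper used mice of both sexes and adjusted its own genotype test for litter and sex. The main fit here has litter alone, so littermates of a pair may differ in sex. A covariate from 4 Y-linked genes was used as an alternative.

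The level of the targeted gene did not follow the labels. Erbb4 was 0.583 ± 0.242 TPM (SD, n = 6) in libraries labelled ErbB4myeKO and 0.450 ± 0.132 TPM (SD, n = 6) in libraries labelled ErbB4FF, and it was higher in the former in 4 of 6 litters. TPM, an abundance unit of kallisto, scale each library to one total and allow for transcript length, and here they cover the whole Erbb4 transcript and not the floxed part alone. Lyz2, whose locus carries LysMCre, was 5305 ± 1985 TPM in libraries labelled ErbB4myeKO and 8277 ± 3445 TPM in libraries labelled ErbB4FF (SD, n = 6), lower in the former in 5 of 6 litters. Each group is called by its label throughout. The summed TPM of 8 macrophage identity genes was between 2958 and 6415 in libraries labelled ErbB4myeKO and between 3021 and 7560 in those labelled ErbB4FF, all 8 genes being present. Neutrophil markers summed to between 41.3 and 375 TPM and between 42.5 and 185 TPM, with Retnlg at 0, and dendritic cell markers to between 12.8 and 34.6 TPM and between 11.9 and 28.4 TPM, with Siglech and Cd209a at 0. Lymphocyte markers ranged from 0.447 to 1423 TPM and from 0.297 to 172 TPM. The part of these markers in the TRIM values was not tested, and in bulk RNA fewer cells of a type and less RNA per cell cannot be told apart.

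TRIM proteins are mostly ubiquitin E3 ligases. They share a RING finger that recruits a ubiquitin-loaded E2 enzyme, B-box zinc fingers and a coiled coil through which they dimerize, while a variable C-terminal part, often a PRY-SPRY domain, binds the target. In macrophages many of them are interferon-induced, bind viral capsids or act on the receptors, kinases and adaptors that lead to type I interferon and NF-κB, and some take part in autophagy and inflammasome control.

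Interferon acts on genes through the interferon-stimulated response element (ISRE), bound by STAT and IRF factors, so the TRIM promoters were searched for its core. RefSeq promoters of GRCm38.p6, from 250 bases before to 50 bases after a start site, were matched for 53 of the 68 genes. A pair of GAAA repeats separated by any 2 bases, which reads as TTTC repeats on the other strand, was present in 9 of these 53 genes (17.0%) and in 1079 of 27025 genes with a promoter (3.99%). Of the 22 whose mean was 1 TPM or more, 8 held it (36.4%), and of the 31 below that level 1 held it (3.23%), which was Trim2. The shorter core TTCNNNGAA of the gamma-activated site (GAS), which reads the same on both strands and is a separate pattern that may overlap the ISRE letters, was present in 6 of 53 (11.3%) against 9.55% of all genes, in 1 of the 22 (4.55%) and in 5 of the 31 (16.1%). These shares are a description and the matches are letters, not sites. The share among all genes with a mean of 1 TPM or more was not computed, so the split by level has no like background. Neighboring paralogs with shared letters are also not separate cases.

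The matches are printed here because 6 of the 9 genes lie in one stretch of chromosome 7 and some hold identical letters. Each line gives the matched core in capitals with 12 bases on either side, read 5′ to 3′ along the gene's strand.
Trim34a, chr7:104244455-104244488, plus strand: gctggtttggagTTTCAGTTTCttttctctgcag
Trim5, chr7:104288134-104288167, minus strand: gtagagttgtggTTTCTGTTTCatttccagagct
Trim12a, chr7:104315464-104315497, minus strand: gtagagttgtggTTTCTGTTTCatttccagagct
Trim12c, chr7:104353357-104353390, minus strand: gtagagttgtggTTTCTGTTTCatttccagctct
Trim30a, chr7:104465208-104465241, minus strand: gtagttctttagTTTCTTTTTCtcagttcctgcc
Trim30a, a second start site, chr7:104446102-104446135, minus strand: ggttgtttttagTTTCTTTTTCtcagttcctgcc
Trim30d, chr7:104507869-104507902, minus strand: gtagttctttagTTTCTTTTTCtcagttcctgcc
Trim21, chr7:102565442-102565481, minus strand: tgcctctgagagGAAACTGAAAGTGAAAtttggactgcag
Trim26, chr17:36836974-36837013, plus strand: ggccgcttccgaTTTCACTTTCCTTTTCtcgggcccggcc
Trim2, chr3:84212789-84212822, minus strand: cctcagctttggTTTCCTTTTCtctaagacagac

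The 34 bases of Trim5 and Trim12a were identical (0 positions differing), those of Trim12c differed from them at 2 positions, and those of Trim30d were identical to the first Trim30a window. The second Trim30a window differed at 5 positions. In Trim21 and Trim26 a pair of overlapping cores was found, which the capitals cover as one run. The Trim30c promoter held no ISRE letters and 1 GAS core starting at -62 from its start site, shown here in capitals on the line that follows.
Trim30c: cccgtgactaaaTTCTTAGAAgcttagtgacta
The Trim25 promoter held neither, which says only that these letters are not in this window.

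Expression of the family, as read from APPRIS principal transcripts, was carried by few genes. The mean was at least 100 TPM for 2 members, between 10 and 100 TPM for 14 and between 1 and 10 TPM for 13, and these 29 were fitted. The other 39 lay below a mean of 1 TPM, of which 10 were between 0.1 and 1 TPM and 29 below 0.1 TPM, with 13 of these listed at 0 in all 12 libraries. Only principal transcripts have values, and they held 59.0% to 74.7% of a library's TPM. A low or 0 value therefore leaves a gene's other transcripts unmeasured. TPM summed over the 68 members was between 686 and 1188 per library, of which the chromosome 7 cluster made up 55.1% and the Trim30 genes alone 44.2% on average.

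**Figure D1:**
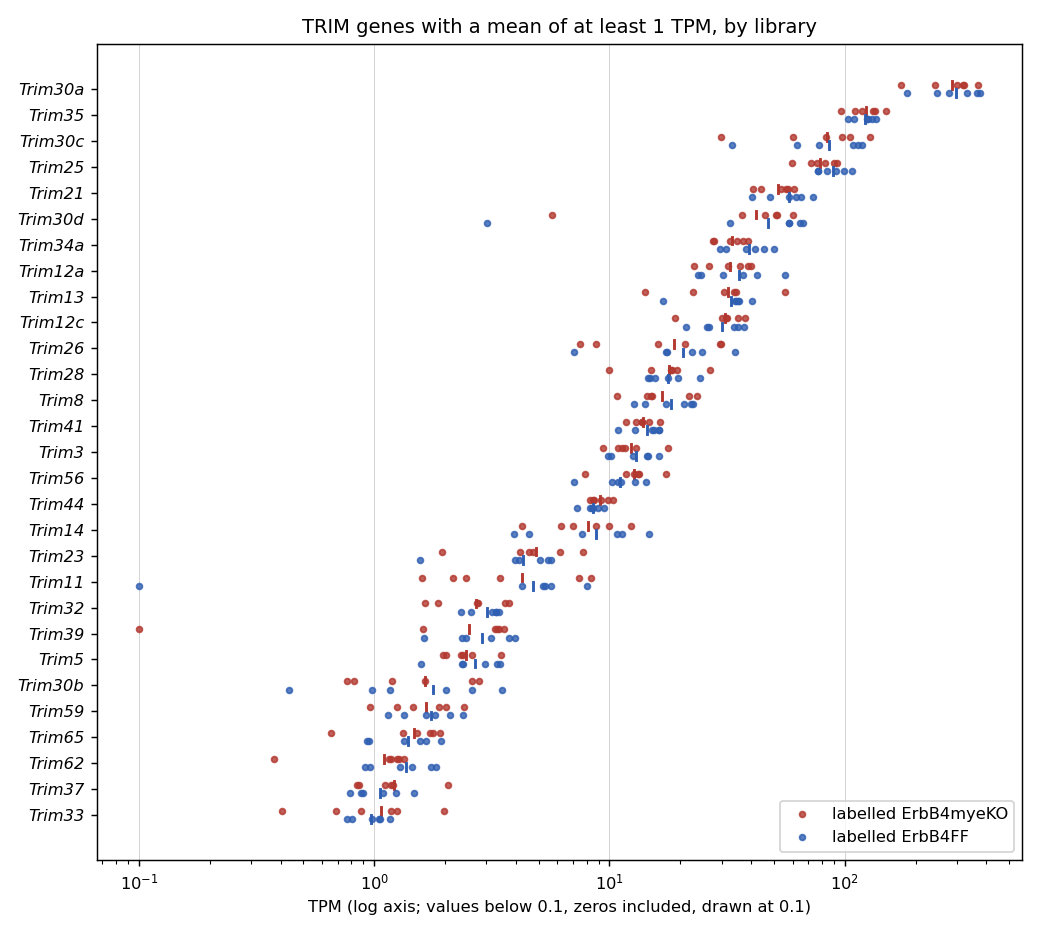
TPM of the 29 fitted TRIM genes, whose mean was 1 TPM or more, on a log axis, with 1 point per library, red for libraries labelled ErbB4myeKO and blue for libraries labelled ErbB4FF, and a short bar at each group's mean (n = 6). In all 29 genes the ranges of both groups overlapped, and Trim30d has 1 library of each group, both of litter 5, far to the left at 5.71 and 3.02 TPM.

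Trim30a, a SPRY-type TRIM of rodents described as a brake on NF-κB signaling, was the most abundant member, at rank 374 of the 8780 genes fitted. Its level was 174 TPM at the lowest, 308 at the median and 367 at the highest in libraries labelled ErbB4myeKO, and 183, 303 and 377 TPM in libraries labelled ErbB4FF. The lowest value of each group belonged to litter 5.

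Trim35, which has been linked to IRF7 turnover and to pyruvate kinase, ranked next at 741. It ranged from 96.4 to 149 TPM (median 125) in libraries labelled ErbB4myeKO and from 103 to 136 TPM (median 125) in libraries labelled ErbB4FF, and it differed by 0.012 on the log2 scale (SE 0.09), with 3 of 6 litters higher. It was among the steadiest members, with a highest value 1.55 times the lowest over 12 libraries. Trim44, a TRIM-like protein without a RING that binds and stabilizes other proteins, was the steadiest at 1.43 times, and Trim41 came between them.

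Trim21, the cytosolic Fc receptor that targets antibody-coated virus to the proteasome, lay between 40.7 and 60.8 TPM (median 55.0) in libraries labelled ErbB4myeKO and between 40.5 and 73.3 TPM (median 60.2) in libraries labelled ErbB4FF. Its difference of -0.14 (SE 0.08) did not pass the test, with an exact permutation p of 0.156 over the within-litter swaps, and it was -0.093 without litter 2 and -0.080 in its most abundant transcript alone.

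Genotype was then compared within litters. The fit of log2(TPM + 0.5) with limma, litter as a block, called 0 of 8780 genes at an adjusted p under 0.05 and 721 (8.21%) at an unadjusted p under 0.05, the smallest adjusted p being 0.603. Of the 29 TRIM genes fitted, 0 passed the adjusted threshold, 0 were higher and 2 were lower at an unadjusted p under 0.05 (6.90% of members), and these were Trim25 and Trim34a. Over all genes 3.83% were higher and 4.38% lower at that level. The share of TRIM genes was thus near that of all genes. A same sign in 6 of 6 litters was seen for the same 2 members, both lower, and for 4.82% of all genes, 2.51% being higher and 2.31% lower in all litters. By sign alone 10 members were higher and 19 lower in libraries labelled ErbB4myeKO, with a median log2 difference of -0.046 (range -0.39 to 0.19), where the median of all genes was -0.00068. With 1 litter left out, the median of the members was -0.0085 without litter 2, -0.073 without litter 3 and -0.075 without litter 5, and it lay between these for each of the other litters.

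**Figure D2:**
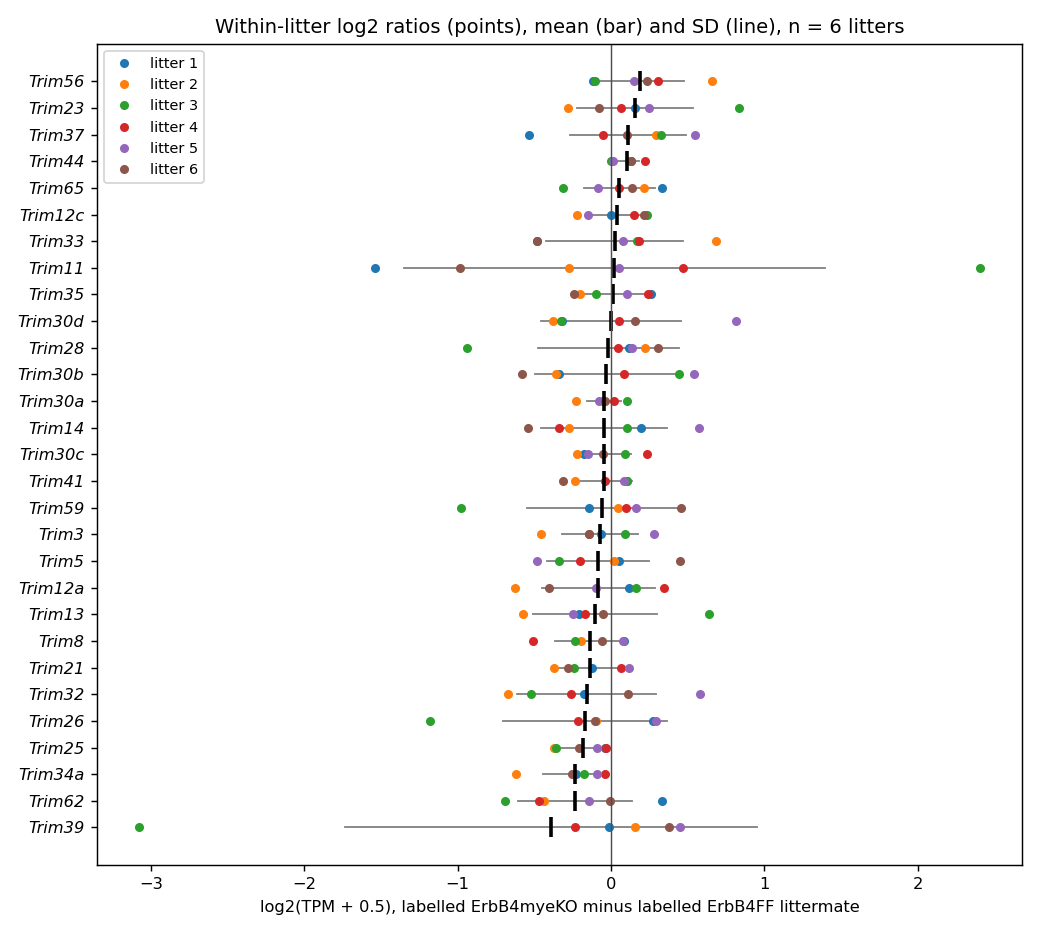
Difference in log2(TPM + 0.5) between the littermates labelled ErbB4myeKO and ErbB4FF for the 29 TRIM genes, with 1 colored point per litter, a black bar at the mean and a gray line for the SD (n = 6 litters). Trim25 and Trim34a have all 6 points left of 0, and for 26 of the 29 genes the SD line is longer than the distance of the mean from 0.

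Trim25, on chromosome 11 (88999376 to 89020293, plus strand), adds K63-linked ubiquitin to the RNA sensor RIG-I and is itself modified by ISG15. Libraries labelled ErbB4myeKO, from litter 1 to litter 6, had 82.0, 76.5, 59.6, 90.0, 72.0 and 92.4 TPM, and libraries labelled ErbB4FF had 84.4, 99.0, 76.6, 92.0, 76.8 and 107 TPM. The groups overlapped, but within each litter the library labelled ErbB4myeKO was the lower one, by as little as -0.032 in litter 4 and as much as -0.37 in litter 2. Means were 78.7 ± 12.2 and 89.3 ± 12.3 TPM (SD, n = 6), a log2 difference of -0.18 (SE 0.07). The limma p was 0.0328 and its adjusted p 0.603, and the exact two-sided permutation p of 0.0312 is the smallest that 64 swaps can give. The unadjusted limma p was 0.085 without litter 2, 0.079 without litter 3, 0.067 without litter 6, 0.065 without the trend and 0.203 without the litter block.

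Trim34a, on chromosome 7 (104244457 to 104262234, plus strand), is an interferon-induced relative of TRIM5. Its values from litter 1 to litter 6 were 38.8, 32.4, 27.5, 37.1, 27.8 and 34.7 TPM in libraries labelled ErbB4myeKO and 45.4, 50.1, 31.2, 38.2, 29.6 and 41.4 TPM in libraries labelled ErbB4FF. Again the groups overlapped and all 6 littermate differences had the same sign, from -0.041 in litter 4 to -0.62 in litter 2. The means of 33.1 ± 4.69 and 39.3 ± 8.01 TPM (SD, n = 6) gave a log2 difference of -0.23 (SE 0.09), with an unadjusted limma p of 0.0297, an adjusted p of 0.603 and an exact permutation p of 0.0312. The unadjusted limma p was 0.060 without litter 2, and 0.062 without litter 1, 0.063 without litter 6 and 0.159 without the litter block.

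**Figure D3:**
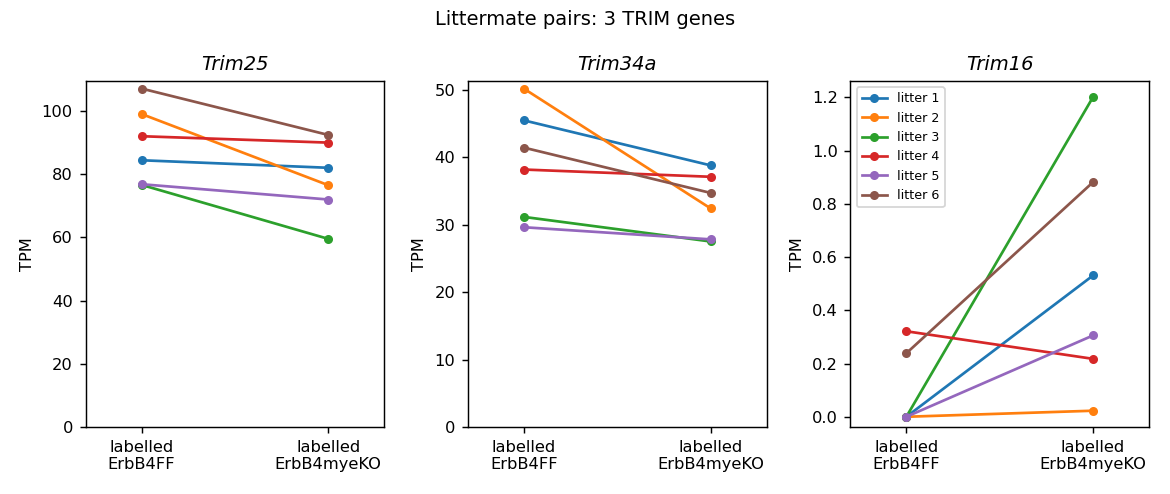
TPM of Trim25, Trim34a and Trim16 in the library labelled ErbB4FF (left) and its littermate labelled ErbB4myeKO (right), each line being 1 of the 6 litters. All 6 lines go down for Trim25 and Trim34a, and 5 of 6 go up for Trim16, whose highest value is 1.20 TPM.

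The most abundant Trim34a transcript did not share the direction of the gene. The gene has 3 principal transcripts in the table, and ENSMUST00000106849.8 held most of the TPM, at 27.8 ± 5.34 in libraries labelled ErbB4myeKO and 26.0 ± 8.18 in libraries labelled ErbB4FF (SD, n = 6). Taken alone it was 0.14 higher on the log2 scale (SE 0.21), the opposite direction to the gene, with 3 of 6 litters higher. ENSMUST00000060315.11 was 0.0873, 7.78, 0.143, 9.08, 0.00985 and 0.0776 TPM from litter 1 to litter 6 in libraries labelled ErbB4myeKO and 9.06, 10.4, 0.110, 9.77, 16.9 and 6.30 TPM in libraries labelled ErbB4FF. It was near 0 in 4 libraries of the first group and in 1 of the second, and its log2 difference was -2.18 (SE 0.80), lower in 5 of 6 litters, with an exact permutation p of 0.0625. ENSMUST00000106848.7 had a difference of -0.90 (SE 0.99).

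Transcript estimates of Trim34a rest on shared sequence. Of the 31-mers of the 3 transcripts, between 98.4% and 98.8% also occur in another listed transcript of the gene and between 67.7% and 70.4% occur in another gene, mostly Trim34b, which was listed at no more than 0.26 TPM in any library. How the reads were split among them was not tested. In the fit of 10085 transcripts, 35 TRIM transcripts were included, 0 passed the adjusted threshold, and 2 were lower at an unadjusted p under 0.05, which were ENSMUST00000060315.11 and the single Trim25 transcript, where 6.72% of all transcripts passed at that level (3.12% higher and 3.60% lower).

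**Figure D4:**
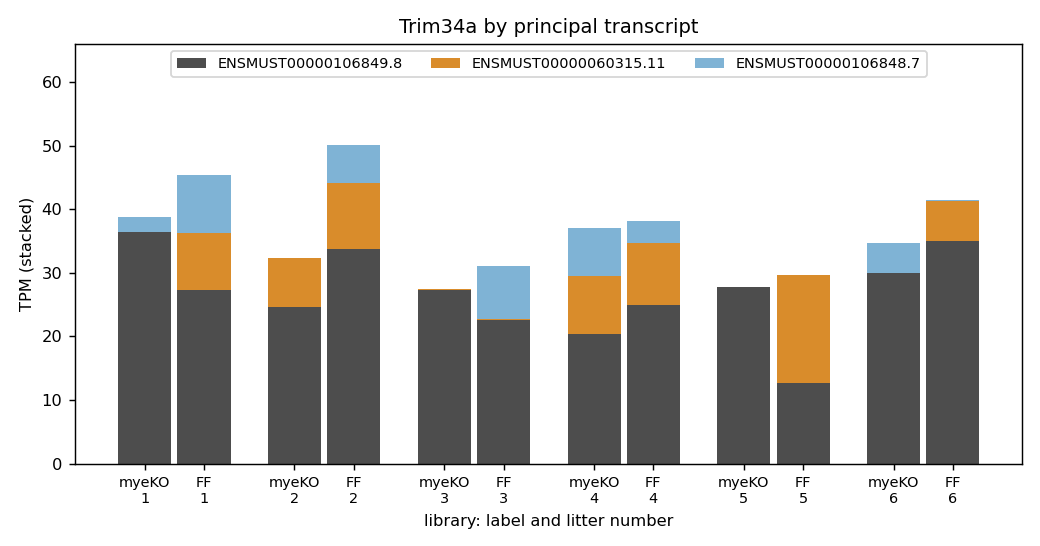
Stacked TPM of the 3 principal Trim34a transcripts in each library, littermates side by side (n = 1 library per bar). The orange transcript ENSMUST00000060315.11 is near 0 in libraries labelled ErbB4myeKO of litters 1, 3, 5 and 6 and in the library labelled ErbB4FF of litter 3, while the dark transcript makes up most of every bar but that of ErbB4FF in litter 5, where it is 12.7 TPM.

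Other antiviral members outside the cluster gave no call. Of the 14 listed, 9 were fitted, 3 being higher and 6 lower, with a median of -0.048 and Trim25 as the single gene at an unadjusted p under 0.05 (11.1%, against 8.21% of all genes). Trim56, which acts on the DNA sensing pathway of cGAS and STING, had the largest positive difference of the 29 fitted members, 12.7 ± 3.07 against 11.1 ± 2.48 TPM (SD, n = 6), a log2 difference of 0.19 (SE 0.12) that did not pass the test, with 4 of 6 litters higher and an exact permutation p of 0.156, and without litter 2 it was 0.093, below the 0.24 of Trim23. Trim62, linked to CARD9, was at 1.10 ± 0.360 against 1.36 ± 0.382 TPM (SD, n = 6), a difference of -0.24 (SE 0.20), lower in 5 of 6 litters, which was -0.15 without litter 3. The principal transcripts of Trim40 and Trim38 were listed at 0 in all 12 libraries.

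Signalling and trafficking members were split evenly. Of 14 listed, 8 were fitted, 4 higher and 4 lower, with a median of -0.019. Trim13, an endoplasmic reticulum E3 that takes part in degradation from that compartment, was the most abundant at 32.4 TPM on average and ranged from 14.1 to 55.8 TPM in libraries labelled ErbB4myeKO and from 16.8 to 40.2 TPM in libraries labelled ErbB4FF. Trim23, which carries an ADP-ribosylation factor domain, differed by 0.16 (SE 0.16) and Trim37, a peroxisomal and centrosomal E3, by 0.11 (SE 0.20). With 1 litter left out these ranged from 0.022, without litter 3, to 0.24, without litter 2, and from 0.026, without litter 5, to 0.24, without litter 1. Trim44, also counted with the RING-less members, of which 2 of 5 were fitted, was 9.14 ± 0.834 against 8.48 ± 0.736 TPM (SD, n = 6) and higher in 5 of 6 litters, by 0.10 (SE 0.08), with an exact permutation p of 0.0625. Trim17 was listed at 0 throughout.

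Trim39, which inhibits the anaphase-promoting complex in the cell cycle, had the lowest difference of the 29 fitted members, -0.39 (SE 0.46), and this value rested on 1 library. Libraries labelled ErbB4myeKO were at 1.61, 3.55, 0.00, 3.28, 3.40 and 3.33 TPM from litter 1 to litter 6, and libraries labelled ErbB4FF at 1.63, 3.13, 3.72, 3.95, 2.35 and 2.45 TPM. Without litter 3 the difference was 0.15, and 3 of 6 litters were higher. Trim11 was at 1.99e-07 TPM in the same litter but in the other group, and its littermate differences ran from -1.54 to 2.41.

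Chromatin members with a PHD finger and bromodomain were Trim28, the KAP1 corepressor of zinc finger proteins, and Trim33, with Trim24 and Trim66 below the filter. Trim28 was 18.0 ± 5.47 against 17.8 ± 3.69 TPM (SD, n = 6), with a difference of -0.018 (SE 0.16), and Trim33 differed by 0.026 (SE 0.22). The NHL-repeat members Trim3 and Trim32 differed by -0.072 (SE 0.11) and -0.16 (SE 0.19). None of the 4 muscle members, with Trim63 listed at 0 and Trim72 the highest, and none of the 4 neuronal members, with Trim46 the highest at a mean of 0.076 TPM, was fitted.

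Below the filter, Trim16, a RING-less TRIM of damaged membranes and of cytokine secretion that the study names, was between 0.023 and 1.20 TPM in libraries labelled ErbB4myeKO (median 0.418) and between 0 and 0.321 TPM in libraries labelled ErbB4FF. The groups overlapped, and 5 of 6 litters were higher. Over all 6 litters the mean log2 difference was 0.71 ± 0.71 (SD, n = 6), and the exact permutation p was 0.0938. Its single transcript shares 0% of its 31-mers with other genes, and the exponential of the authors' mean natural log of normalized estimated counts was 3.21, against 2886 for Trim25 and 6518 for Trim30a. Without a filter, limma gave Trim16 an unadjusted p of 0.029, Trim24 0.043 and Trim45 0.028, all higher, and an adjusted p of 0.764 each. These were 3 of the 55 members above 0 TPM (5.45%), where 3.36% of 15865 genes were higher at that level. With Trim25 and Trim34a, which were lower, 5 of 55 members (9.09%) passed in either direction, against 6.2% of all genes. Trim24 was listed at 0 in 3 libraries labelled ErbB4myeKO and had between 0.568 and 0.760 TPM in the other 3, and libraries labelled ErbB4FF reached 0.112 TPM at most. Trim45 lay between 0.202 and 0.484 TPM and between 0.043 and 0.241 TPM. The exact permutation p was 0.25 for Trim24, with 3 litters higher and 0 lower, and 0.0625 for Trim45, with 5 higher and 1 lower.

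The cluster on chromosome 7, between 104218793 and 104507849, holds paralogs next to Trim5, which restricts retroviral capsids in other mammals. Of its 10 genes with values, 8 were fitted, 2 higher and 6 lower, with a median of -0.046 and Trim34a as the single one at an unadjusted p under 0.05 (12.5%, against 8.21% of all genes). Summed over the cluster, TPM was 514 ± 138 in libraries labelled ErbB4myeKO and 539 ± 150 in libraries labelled ErbB4FF (SD, n = 6), a log2 difference of -0.066 that was above 0 in 2 of 6 litters, with an exact permutation p of 0.281. For Trim30a the difference was -0.045 (SE 0.06), for Trim30c -0.046 (SE 0.08), for Trim12a -0.084 (SE 0.13) and for Trim12c 0.038 (SE 0.09). With 1 litter left out, Trim30a ranged from -0.0085, without litter 2, to -0.075, without litter 3, and Trim30c from -0.011, without litter 2, to -0.10, without litter 4. In the same way Trim12a ranged from -0.17 to 0.025 and the cluster median from -0.074 to 0.0083, both crossing 0. Paralogs share sequence here too. The share of 31-mers found in another gene was 5.58% for Trim30b, 5.69% for Trim30c, 12.0% for Trim30a, 22.7% for Trim30d, 40.9% for Trim12a, 55.6% for Trim5 and between 49.3% and 57.0% for the Trim12c transcripts, and it was highest for Trim34a and Trim34b (71.0%).

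Litters were then compared, a step chosen after the values had been seen. Trim30d, a Trim30a paralog, was at 5.71 and 3.02 TPM in litter 5 and between 32.7 and 66.7 TPM in the other 10 libraries. Both littermates of litter 5 were thus low, and no other library came near. Averaged over littermates, litter 5 lay below the mean of the other litters by a log2 of -3.47, and 54 of 8780 genes (0.615%) had a value as low or lower. Trim30c was at 29.8 and 33.1 TPM in litter 5 against 60.2 to 127 TPM elsewhere, and Trim30a at 174 and 183 TPM against 241 to 377 TPM. Trim12c, outside the Trim30 genes, was also lowest there, at 19.0 and 21.1 TPM against 25.9 to 37.8 TPM.

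**Figure D5:**
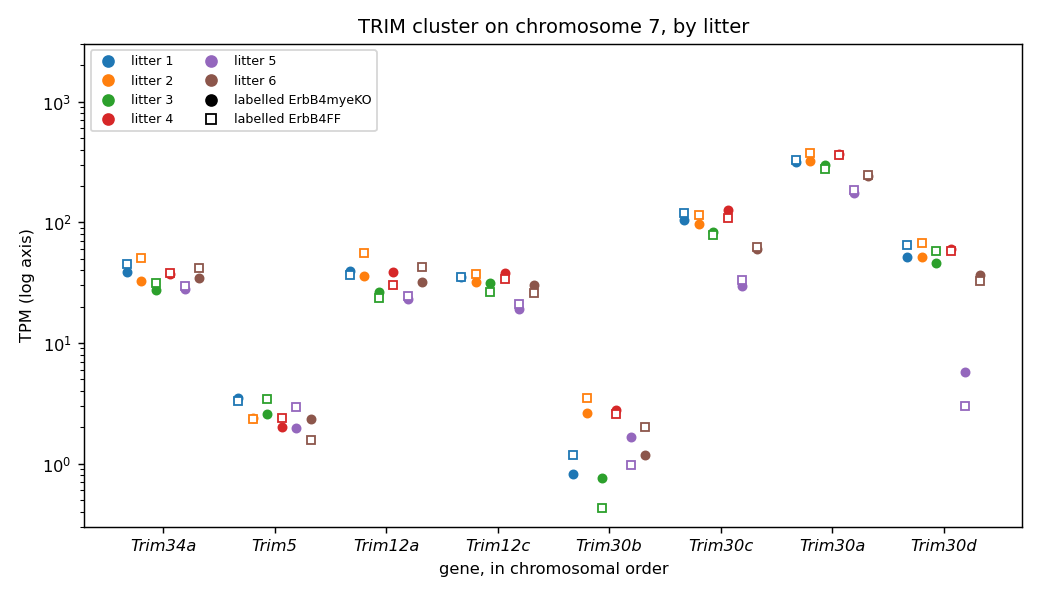
TPM of the 8 fitted genes of the chromosome 7 cluster on a log axis, colored by litter, filled circles for libraries labelled ErbB4myeKO and open squares for libraries labelled ErbB4FF. Littermates lie close together for Trim30a and Trim30c and further apart in some litters for Trim12a and Trim30b. Both libraries of litter 5 (purple) are lowest for Trim12c, Trim30c, Trim30a and, by the widest gap, Trim30d.

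The low values of litter 5 were uneven along the cluster. The difference of litter 5 from the other litters was -1.54 for Trim30c, -0.80 for Trim30a, -0.67 for Trim12c, -0.56 for Trim12a, -0.37 for Trim34a, -0.21 for Trim30b and -0.055 for Trim5, next to a median of -0.16 over the 29 TRIM genes and of 0.057 over all genes. The ratio of Trim30d to Trim30a TPM was 0.033 and 0.016 in litter 5 and between 0.132 and 0.208 elsewhere. Among 15 interferon reference genes the litter 5 difference had a median of -0.024 and ran from -2.12 to 0.67, and the 4 fitted neighbors within 1 Mb that are not TRIM genes ran from -0.91 to 1.36. These neighbors were Usp17lc, Olfr624, Olfr635 and Olfr639, with means of 1.28, 14.0, 1.32 and 1.34 TPM, most of them close to the filter.

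Some other features of litter 5 stood apart as well, and others did not. Its transcripts in the table held 71.4% and 74.7% of the library's TPM, where the other libraries held 59.0% to 64.9%, and its macrophage identity genes summed to 2958 and 3021 TPM, where the others had 4575 to 7560 TPM. Its neutrophil markers summed to 185 and 216 TPM, within the 41.3 to 375 TPM of the others. Dendritic cell markers summed to 19.7 and 28.4 TPM, within 11.9 to 34.6 TPM, and lymphocyte markers to 58.9 and 120 TPM, within 0.297 to 1423 TPM. Erythroid markers, none of which reached the filter, summed to 0.696 and 0.981 TPM, above the 0 to 0.325 TPM of the others. Proliferation markers summed to 69.9 and 80.4 TPM, and the lower value lay within the 45.9 to 76.2 TPM of the others. The part of these in the litter 5 values was not tested. Without litter 5 the genotype difference of Trim30d was -0.16 (SE 0.11), where it was 0.00058 (SE 0.16) with it.

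Across the family the F test of litter in the same limma model called 12 of 29 members (41.4%) at an adjusted p under 0.05, near the 44.9% of all genes, and the smallest values belonged to Trim30c, Trim30d and Trim30a. With litter 5 left out 2 of 29 (6.90%), Trim30c (adjusted p = 0.031) and Trim14 (adjusted p = 0.032), were called by limma, against 11.1% of all genes. Litter held a median of 75.8% of the variance of a TRIM gene and genotype 1.39%, where the medians over all genes were 78.1% and 2.49%. Without litter 5 the medians for TRIM genes were 68.5% and 4.49%, and over all genes 67.7% and 5.35%. The model has 5 degrees of freedom for litter and 1 for genotype, so a larger litter share is to be expected even where neither has an effect. Genotype held most for Trim34a, 20.2%, and Trim25, 18.1%.

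Genes that TRIM proteins work with were taken from lists. Of 11 ubiquitin enzymes fitted 2 were higher and 9 lower, with a median of -0.12 that was -0.20 without litter 4, and the single one at an unadjusted p under 0.05 (9.09%, against 8.21% of all genes) was Ube2l6, the E2 for ISG15, at 212 ± 47.8 against 242 ± 58.0 TPM (SD, n = 6), a difference of -0.19 (SE 0.07) with 0 of 6 litters higher. Of 31 substrates and signaling partners 12 were higher and 19 lower, with a median of -0.052, 1 being higher and 4 lower at an unadjusted p under 0.05 (16.1%, against 8.21% of all genes), and 0 passed the adjusted threshold. The higher one was Sqstm1, the autophagy receptor p62, at 888 ± 345 against 762 ± 389 TPM (SD, n = 6), a difference of 0.29 (SE 0.08) with 6 of 6 litters higher. Ddx58, which encodes RIG-I, the target of TRIM25, was at 58.4 ± 21.7 against 72.2 ± 27.2 TPM (SD, n = 6), a difference of -0.28 (SE 0.11) with 0 of 6 litters higher. The other 3 lower ones were Irf7 (-0.36), Lgals8 (-0.50) and Setdb1 (-1.39), the last listed at 0 TPM in the library labelled ErbB4myeKO of litter 6 and at 4.32e-07 TPM in that of litter 5.

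Interferon reference genes were taken as a further list, which shares Irf7 with the substrates and signaling partners, so that Irf7 is counted in both. Of the 15, 14 were lower, with a median of -0.24, and 6 (40.0%) were lower at an unadjusted p under 0.05, where 4.38% of all genes were, and these were Stat2, Irf7, Isg15, Oas1a, Rsad2 and Cxcl10. None passed the adjusted threshold, and Cxcl10 (-0.18, SE 0.06) was lower in 6 of 6 litters. From litter 1 to litter 6 the median difference was -0.081, -0.50, -0.083, -0.17, 0.026 and -0.45 for these genes and -0.041, -0.23, -0.096, 0.047, 0.084 and -0.053 for the TRIM genes. Litter 2 had the lowest median of both lists, but in litter 6 the interferon median was -0.45 and the TRIM median -0.053. Trim25 differed by -0.37 in litter 2 and by -0.36 in litter 3, where the interferon median was -0.083. The difference between the lists was not tested.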

How the data were processed

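Single-ended reads were pseudoaligned with kallisto, and the authors deposited TPM per APPRIS principal transcript for 12 libraries, with sleuth's mean natural log of normalized estimated counts. The submitters' processing notes also name CASAVA and mm10; the versions are not given in the sources used here. The authors' p, q, test statistics and log2 ratios were not used. The table carries no read depth, so precision rests on the spread between litters. Genes above 0 TPM numbered 10214 to 12985 per library.

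Of 29213 lines, 405 repeats were dropped and TPM summed per gene. Genes whose mean was 1 TPM or more were fitted on log2(TPM + 0.5), a scale that understates the change of low genes, with limma 3.58.1 in R 4.3.3 (lmFit, eBayes with trend, Benjamini-Hochberg), genotype as effect and litter as a block. The test of single values was an exact two-sided permutation of 64 swaps within litters. Libraries are separate mice. Littermates pair by the number on their labels, and their deviations correlated at 0.273 to 0.774. Python 3.11.15 with pandas 2.3.3, numpy 2.4.6 and matplotlib 3.10.9 did the rest. Positions and shared 31-mers came from GENCODE M21 (GRCm38).

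On simulated data for this comparison with 8780 genes, 200 of them changed, the fit recovered 72% of log2 changes of 1 and 89% of those of 2, and 11 of 172 calls were false. Smaller changes were not simulated. The TRIM differences ran from -0.39 to 0.19, so these shares do not tell how often changes of that size would be found.

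The members and lists were chosen with earlier results of these data known. Named members are Trim16, the 8 with the highest mean, those at an unadjusted p under 0.05 or of 1 sign in 6 litters, the 3 largest rises and falls, and the highest and lowest of each list. Trim2, Trim5, Trim11, Trim12c, Trim14, Trim24, Trim26, Trim32, Trim33, Trim38, Trim41, Trim45 and the other genes named singly were chosen after their values were seen. Alternatives were no litter block, pseudocounts of 0.1 and 1, a filter of 5 TPM or none, median-ratio scaling, no trend, a covariate from 4 Y-linked genes, the most abundant transcript alone, and each litter left out.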

Additional observations from a re-analysis of the deposited data

Results flagged for a closer look

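Of 42 groups of 6 values tested for a single value far from the others, 4 were past Dixon's critical value, where chance gives about 1 in 20. The Trim34a littermate difference of litter 2 was -0.62 on the log2 scale, the next being -0.25. Trim37 was 2.05 TPM in the library labelled ErbB4myeKO of litter 5, the next being 1.20 TPM. The Trim39 difference of litter 3 was -3.08, the next being -0.24, as the library labelled ErbB4myeKO was listed at 0.00 TPM. Trim62 was 0.376 TPM in the library labelled ErbB4myeKO of litter 3, the next being 1.15 TPM.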

How the results depend on the processing

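Of the 473 values recomputed, 439 stayed on their side of the threshold or within 1.5 times the count or, for list medians, moved by less than the spread between litters, which allows a change of sign. Without the replicate block 75 genes had an unadjusted p under 0.05, with 0 lower TRIM genes and 1 TRIM transcript, and Trim16 (0.71) had an exact permutation p of 0.039. Leaving out 1 litter gave 410 to 860 such genes (0 to 1 at an adjusted p under 0.05, the 1 without litter 3), 0 to 2 lower TRIM genes, 0 to 2 TRIM transcripts and a median of -0.054 to -0.017 for the substrates. limma without trend gave 1 lower TRIM gene (Trim34a) and 1 transcript, and the most abundant transcript alone 1 lower gene. Without a filter 3 TRIM genes were higher (Trim16, Trim24, Trim45), with 983 genes called in all, and 5 transcripts passed. Single members that turned were Trim34a in its most abundant transcript (0.14), Trim30d with a pseudocount of 1 (-0.012), median-ratio scaling (-0.0093) or the Y-linked covariate (-0.062), and, with litters left out, Trim30d (-0.16 to 0.077), Trim35 (-0.038 to 0.062), Trim12a (-0.17 to 0.025) and Trim39 (-0.56 to 0.15). Medians near 0 turned too. With litters left out, they ranged from -0.074 to 0.0083 for the cluster, -0.17 to 0.0047 for antiviral, -0.066 to 0.047 for signalling, -0.086 to 0.081 for chromatin and -0.025 to 0.074 for RING-less members. The signalling median was also above 0 with a pseudocount of 0.1 (0.015), no filter (0.021), the Y-linked covariate (0.00050) and the most abundant transcript (0.058), the chromatin median below 0 with a pseudocount of 0.1 (-0.0099), the filter of 5 TPM (-0.018) and median-ratio scaling (-0.0029), the NHL median 0.11 in the most abundant transcript, and the median of all members 2.35e-10 without a filter. The count of 12 members that differ between litters became 2 without litter 5, chosen after seeing the data. Causes were not tested. Trim16 has no value at a mean of at least 5 TPM.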

Other observations

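Genes of TRIM proteins that carry another symbol were outside the rule. Mefv, which encodes pyrin, the sensor of an inflammasome, was 113 ± 44.9 TPM in libraries labelled ErbB4myeKO and 126 ± 49.0 TPM in libraries labelled ErbB4FF (SD, n = 6), a log2 difference of -0.15 (SE 0.06), lower in 6 of 6 litters, with a limma p of 0.048 that did not pass adjustment, was 0.663 without the litter block and lay between 0.056 and 0.118 with 1 litter left out. Pml, the organizer of nuclear bodies, was 25.0 ± 9.03 against 32.1 ± 13.9 TPM (SD, n = 6), a difference of -0.28 (SE 0.34), and Mid1, a microtubule-bound E3, 1.05 ± 0.615 against 2.27 ± 2.44 TPM (SD, n = 6), a difference of -0.42 (SE 0.41). Without litter 2 the Mid1 difference was -0.12 and without litter 3 it was -0.80, while that of Pml was -0.0012 without litter 3 and -0.63 without litter 5. Mid2 was below the filter.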
